A study of Homo sapiens with 12 samples.

Results

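Mitophagy is the removal of mitochondria by autophagy. A receptor in the outer mitochondrial membrane binds the lipid-anchored ATG8 proteins of a growing autophagosome, and the enclosed mitochondrion is then digested in the lysosome. BNIP3 and BNIP3L (also called NIX) are such receptors and are textbook targets of the hypoxia-inducible factors (HIF), FUNDC1 is a further receptor, and PINK1 is the kinase that starts the ubiquitin-dependent route with Parkin. ULK1 and BECN1 belong to the complexes that start autophagosomes, SQSTM1 (p62) is a soluble cargo adaptor, and MAP1LC3B (LC3B) is the ATG8 protein most often used to mark autophagosomes.

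The mRNA of these 8 genes was followed in RCC4 cells, a clear cell renal carcinoma (ccRCC) line without functional VHL, in which HIF-alpha subunits are therefore not degraded in normal oxygen. The 8 symbols were given as a list by function. No measured value enters the list as a rule, but it was drawn up with earlier results of these data known. All 8 were found among the 23106 symbols of every count table and passed the filter on low counts. Cells were harvested 48 h after transfection with pools of siRNAs at 2 nM in total. The study's methods for this transfection give no oxygen level. The 4 conditions were control (non-targeting) siRNA at 2 nM, HIF1A siRNA at 1 nM with control siRNA at 1 nM, HIF2A siRNA (against EPAS1) at 1 nM with control siRNA at 1 nM, and HIF1A siRNA with HIF2A siRNA at 1 nM each (the double knockdown), with 3 replicates per condition. RCC4 is a single cell line, all conditions share its loss of VHL and the transfection, and with bulk RNA a lower level in every cell and fewer cells expressing the gene cannot be told apart.

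The 12 libraries held 13263168 to 20451433 counts, and the members between 229 counts (BECN1) and 15385 counts (BNIP3) per library. HIF1A mRNA was 12.5 to 30.6% of the paired control with HIF1A siRNA and 20.1 to 55.3% in the double knockdown, where it was higher than with HIF1A siRNA alone in all 3 pairs (134 to 180%, adjusted p = 0.18 by the quasi-likelihood test of edgeR, Benjamini-Hochberg adjusted). The control library of replicate 2 had the lowest HIF1A level of the controls (58.2 CPM, counts scaled to library totals, against 120 and 112). EPAS1 mRNA was 5.46 to 8.60% of control with HIF2A siRNA and 4.10 to 8.16% in the double knockdown. With HIF1A siRNA it stood at 62.2 to 78.5% of control (log2 fold change -0.47, 95% interval -0.79 to -0.15). There the unadjusted p was 0.0075 and the adjusted p 0.28 by edgeR. The renal epithelial markers PAX8 (197 to 315 CPM) and KRT8 (366 to 570 CPM) were present in every library, and CDH1, alone of 9 renal epithelial markers, reached at most 0.482 CPM. Of 4 leukocyte markers CD68, which is also a lysosomal membrane protein, stood at 32.6 to 65.1 CPM, CD14 reached 0.689 CPM, and PTPRC and CD3E had no count. The 4 endothelial markers reached at most 0.432 CPM each, with PECAM1 at 0 throughout. Of 5 fibroblast and pericyte markers COL1A1 stood at 16.6 to 71.1 CPM and PDGFRB at 0.647 to 8.58 CPM, and the others reached at most 2.16 CPM. The summed levels of the leukocyte and of the fibroblast and pericyte list overlapped between all 4 conditions.

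The promoters of BNIP3 and MAP1LC3B are shown because the first belonged to the member with the largest change and the second to a member with none called, while both held several copies of the core of the hypoxia response element. The windows run from 250 bases before to 50 bases after the RefSeq start site (GRCh38.p14), 5′ to 3′ on the strand of the gene. Capitals mark matches to the core motif ACGTG and to its close relative, the core motif GCGTG, on either strand. On the opposite strand the first of these motifs reads CACGT, and the latter motif reads CACGC.
BNIP3 promoter, chr10:131981874-131982173, minus strand: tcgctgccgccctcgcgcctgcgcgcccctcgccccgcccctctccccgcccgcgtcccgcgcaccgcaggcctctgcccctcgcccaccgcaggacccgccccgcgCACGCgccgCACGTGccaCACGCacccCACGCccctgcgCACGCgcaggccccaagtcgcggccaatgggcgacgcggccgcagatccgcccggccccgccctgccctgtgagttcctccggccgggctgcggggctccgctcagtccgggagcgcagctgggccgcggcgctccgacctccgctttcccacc
MAP1LC3B promoter, chr16:87392086-87392385, plus strand: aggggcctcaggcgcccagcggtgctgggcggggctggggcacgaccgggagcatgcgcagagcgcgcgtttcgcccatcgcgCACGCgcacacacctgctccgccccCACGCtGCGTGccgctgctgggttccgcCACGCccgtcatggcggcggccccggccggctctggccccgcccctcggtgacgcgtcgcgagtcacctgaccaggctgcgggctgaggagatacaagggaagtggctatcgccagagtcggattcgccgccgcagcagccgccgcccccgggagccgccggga

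Windows of this kind were at hand for BNIP3, FUNDC1, BECN1, ULK1, MAP1LC3B and SQSTM1, the last with 3 start sites, and none was used for BNIP3L and PINK1. The BNIP3 window held 6 core matches on either strand, 4 of GCGTG and 2 of ACGTG, the 2 overlapping within a single palindrome CACGTG. They began between 143 and 104 bases before the start site, at -143, -134, -133, -125, -116 and -104. The MAP1LC3B window held 4 matches, all of GCGTG, at -167, -142, -136 and -114. ULK1 had a single GCGTG at -65, and no match stood in the windows of FUNDC1, BECN1 or SQSTM1. Of 35116 promoter windows of the same length, 48.4% held at least 1 core match, 4.40% at least 4 and 0.923% at least 6. ACGTG was found in 21.4%, GCGTG in 36.5% and CACGTG in 7.26% of them. Base composition differed as well, with 80.7% G and C in the BNIP3 window and 75.7% in that of MAP1LC3B against a median of 58.7% over all windows. A match is a description of the letters and no measure of binding. In GENCODE 44 (GRCh38) the BNIP3 gene spans chr10:131967684-131981967 on the minus strand with 6 exons in its canonical transcript, and MAP1LC3B spans chr16:87383953-87404779 on the plus strand with 4 exons. The MAP1LC3B window thus lies inside the gene span and not at its outer start. The BECN1 window (chr17:42823830-42824129) likewise lies inside its span (42810134-42833350, minus strand). For both genes the matches describe that start site alone.

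The first comparison asked which mRNAs of the group fell when HIF1A was depleted. BNIP3 and BNIP3L fell and were below the paired control in all 3 pairs, a direction that 15.4% of all genes shared, and the other 6 members did not pass the test. In this comparison 1.17% of the 12830 genes tested were called at an adjusted p under 0.05, and 1.14% were called lower, against 2 of the 8 members. The 150 genes called became 66 without replicate 1 of HIF1A siRNA and 219 without replicate 2 of HIF2A siRNA, with both members called each time. The median log2 fold change was -0.048 over the members and 0.0035 over all genes.

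BNIP3, which also carries a BH3-like domain related to the BCL2 family, stood at 753, 754 and 517 CPM in control replicates 1, 2 and 3 and at 155, 140 and 107 CPM with HIF1A siRNA. The highest library with HIF1A siRNA was below the lowest control library, which held for 4.22% of all genes, and replicate 3 was the lowest of each condition. Means were 675 ± 136 and 134 ± 24.2 CPM (SD, n = 3), and each HIF1A siRNA library held 18.5 to 20.8% of its paired control. The log2 fold change was -2.33 with a standard error (SE) of 0.11 and an adjusted p of 1.3e-07 by edgeR's quasi-likelihood test.

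BNIP3L, the receptor best known for clearing mitochondria from maturing red blood cells, stood at 383, 298 and 309 CPM with control siRNA and at 95.5, 99.2 and 92.2 CPM with HIF1A siRNA. These groups did not overlap either, and the HIF1A siRNA libraries lay within a narrow band of each other. Relative to the paired control 25.0 to 33.3% remained, a log2 fold change of -1.78 (SE 0.13, adjusted p = 8.3e-06 by edgeR's quasi-likelihood test). The share left was thus larger for BNIP3L than for BNIP3 in each of the 3 pairs. Leaving out any library or replicate number kept both calls, with log2 fold changes of -2.36 to -2.28 for BNIP3 and -1.88 to -1.65 for BNIP3L. PNMA2 overlaps BNIP3L on the opposite strand.

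**Figure D1:**
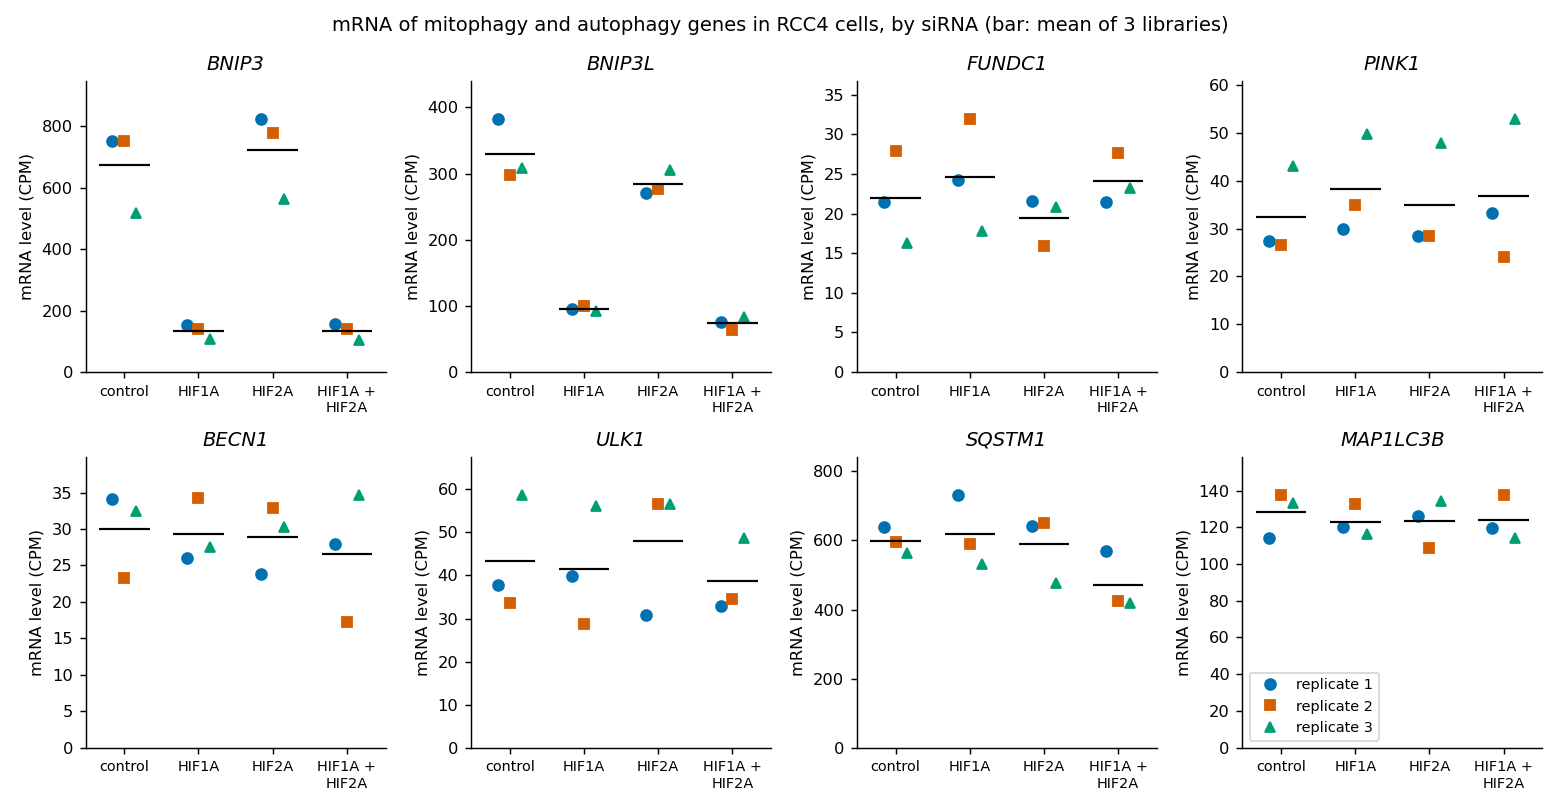
mRNA level in CPM (linear axes from 0) of the 8 genes in every library by siRNA, with replicate numbers as colours and shapes and the mean of 3 libraries as a bar. BNIP3 falls from 517 to 754 CPM with control siRNA to 107 to 155 CPM with HIF1A siRNA, and MAP1LC3B stays between 109 and 138 CPM in all 12 libraries.

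With HIF2A siRNA none of the 8 members passed the test, in a comparison in which 0.0857% of all genes were called (11 genes, all lower). This number was 1 without control replicate 3 and 33 without control replicate 1, with no member among them. DESeq2 also called no member there and called 58 genes in all, and 690 genes had an unadjusted p under 0.05. BNIP3 stood at 824, 779 and 565 CPM, slightly above the paired control in 3 of 3 pairs (103 to 109%), as were 10.8% of all genes. The log2 fold change was 0.11 (95% interval -0.11 to 0.33, adjusted p = 0.96 by edgeR), and the groups overlapped. BNIP3L stood at 271, 276 and 305 CPM, below the paired control in 3 of 3 pairs (70.7, 92.6 and 98.8%), as were 12.2% of all genes, with a log2 fold change of -0.20 (95% interval -0.47 to 0.069, adjusted p = 0.94). The largest gap of BNIP3L came from replicate 1, and without replicate 1 its log2 fold change was -0.043. Both receptor mRNAs therefore had intervals that reached across 0 and that left out a fall of the size seen with HIF1A siRNA. Between the single knockdowns, BNIP3 (log2 fold change -2.44, adjusted p = 6.9e-08) and BNIP3L (-1.58, adjusted p = 1.4e-05 by edgeR) were the lower ones after HIF1A siRNA, where 1.5% of genes were called, and no other member was called. These 193 genes became 90 without replicate 1 of HIF1A siRNA and 351 without control replicate 1. The comparisons with control siRNA share the control libraries.

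In the double knockdown BNIP3 and BNIP3L were lower than with control siRNA under every setting tried, and SQSTM1 narrowly passed the threshold as well, a call that was lost in 17 of 22 alternative settings. These were 3 of the 8 members (2 without SQSTM1), where 10.3% of 13000 genes were called and 6.42% were called lower. The 1336 genes called became 302 without replicate 3 of all conditions and 2307 without replicate 2 of HIF2A siRNA. BNIP3 stood at 157, 140 and 104 CPM, and these values matched those with HIF1A siRNA alone pair by pair (96.4 to 102%). Its log2 fold change was -2.34 against control siRNA (SE 0.093, adjusted p = 1.4e-09 by edgeR) and -0.011 against HIF1A siRNA (95% interval -0.20 to 0.18, adjusted p = 0.98). Against HIF2A siRNA alone it fell to 17.9 to 19.1% (log2 fold change -2.44, adjusted p = 8.2e-10), where 4% of genes were called (520, or 158 without replicate 3 and 672 without control replicate 1). The share of BNIP3 left with HIF1A siRNA was thus nearly the same whether or not EPAS1 was depleted, and the interaction of both siRNAs was -0.11 on the log2 scale (95% interval -0.38 to 0.16, adjusted p = 0.999).

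BNIP3L stood at 75.5, 63.9 and 82.8 CPM in the double knockdown, a log2 fold change of -2.15 against control siRNA (adjusted p = 4.5e-08 by edgeR) and of -1.94 against HIF2A siRNA (adjusted p = 1.6e-07). Each of these libraries was below each library with HIF1A siRNA alone, at 64.4 to 89.8% of the paired one. Over all genes, 4.46% were lower without overlap in this comparison, and 1.4% were called (182, or 26 without replicate 3 and 442 without replicate 2 of HIF2A siRNA). The log2 fold change of BNIP3L here was -0.37 (SE 0.12), with an unadjusted p of 0.0070 and an adjusted p of 0.17 by edgeR. It passed the threshold only when the 6 libraries compared were fitted alone (adjusted p = 0.027), and HIF1A mRNA itself was higher in the double knockdown than with HIF1A siRNA alone, as given above, whose part in the difference was not tested. The interaction for BNIP3L was -0.16 (95% interval -0.52 to 0.20, adjusted p = 0.999). No member was called for the interaction under any setting tried. With the settings used here edgeR called no gene at all, with 318 of 13000 genes at an unadjusted p under 0.05. It called 3 genes without TMM, 4 with no filter and up to 3 with a library left out (without replicate 1 of HIF2A siRNA), and DESeq2 called 11.

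**Figure D2:**
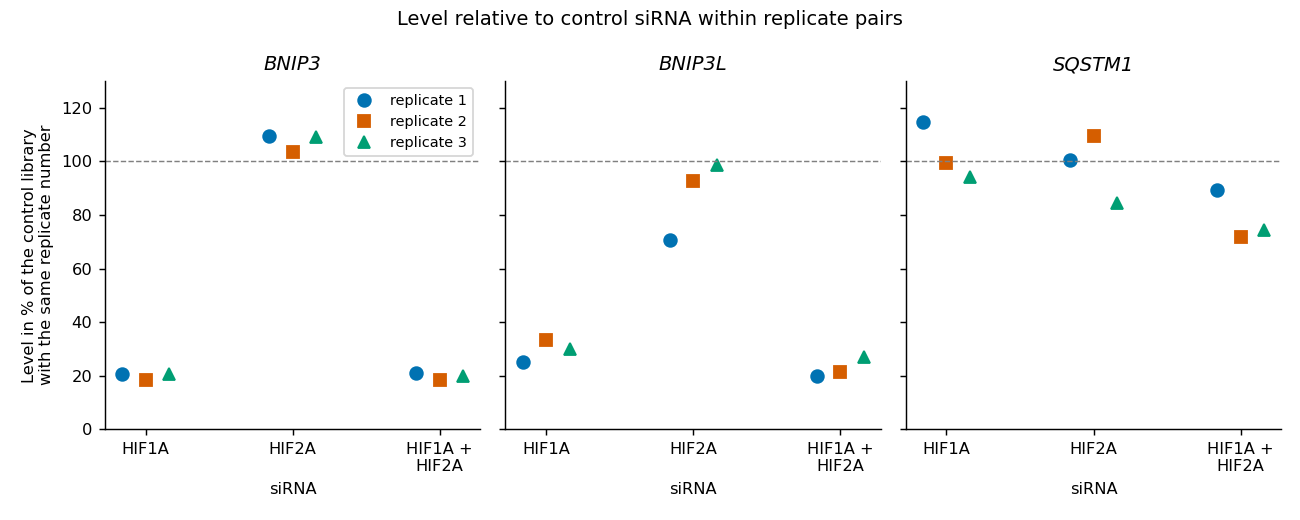
Level of BNIP3, BNIP3L and SQSTM1 in each library as a percentage of the control siRNA library with the same replicate number (dashed line at 100%), for HIF1A siRNA, HIF2A siRNA and both. BNIP3 sits at 18.5 to 20.9% wherever HIF1A siRNA was used, BNIP3L at 19.7 to 33.3%, and SQSTM1 sits at 71.6 to 89.2% in the double knockdown.

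The balance between both receptors was compared after their values had been seen. BNIP3 counts divided by BNIP3L counts gave 1.97, 2.53 and 1.68 in control replicates 1 to 3. With HIF1A siRNA the ratio was 1.62, 1.41 and 1.16, lower than in every control library. It was 3.04, 2.82 and 1.85 with HIF2A siRNA and 2.08, 2.18 and 1.25 in the double knockdown. Of 6 comparisons of the log2 ratio by a two-sided exact permutation test over libraries, which does not use the pairs, none can go below p = 0.10 with 3 against 3, and none passed. HIF1A siRNA reached that value against control siRNA (difference -0.55) and against HIF2A siRNA (-0.86), with an adjusted p of 0.30 each. The double knockdown was above HIF1A siRNA alone in 3 of 3 pairs (difference 0.37, exact permutation p = 0.30) and below HIF2A siRNA alone in 3 of 3 pairs (-0.50, exact permutation p = 0.30). HIF2A siRNA was above control siRNA in 3 of 3 pairs (0.31, exact permutation p = 0.30). Against control siRNA the double knockdown was above in 1 of 3 pairs (difference -0.18, exact permutation p = 0.70).

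SQSTM1, which tethers ubiquitylated cargo to ATG8 proteins and is itself consumed by autophagy, was the other member called in the double knockdown. It stood at 638, 595 and 563 CPM with control siRNA and at 569, 426 and 419 CPM in the double knockdown. The groups overlapped, since replicate 1 of the double knockdown was above control replicate 3, but each library was below its pair (71.6 to 89.2%), as for 25.4% of all genes. The log2 fold change was -0.36 (SE 0.11), with an adjusted p of 0.047 by edgeR's quasi-likelihood test. Without the replicate block the adjusted p was 0.55, and over the 22 alternatives the value stayed between -0.46 and -0.27. With HIF1A siRNA SQSTM1 stood at 733, 591 and 531 CPM (log2 fold change 0.036, 95% interval -0.22 to 0.29) and with HIF2A siRNA at 641, 650 and 476 CPM (-0.026, 95% interval -0.28 to 0.23). The double knockdown was lower than HIF1A siRNA alone at -0.39 (adjusted p = 0.10) and than HIF2A siRNA alone at -0.32 (adjusted p = 0.12 by edgeR), and the interaction was -0.36 with an unadjusted p of 0.033 and an adjusted p = 0.999. MGAT4B, a glycosyltransferase gene that overlaps SQSTM1 on the opposite strand, stood at 253 to 381 CPM in the double knockdown and 317 to 386 CPM with control siRNA (log2 fold change -0.10, adjusted p = 0.59).

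MAP1LC3B was not called in any comparison. Its mRNA stood at 114, 138 and 133 CPM with control siRNA, 120, 133 and 116 CPM with HIF1A siRNA, 126, 109 and 134 CPM with HIF2A siRNA and 119, 138 and 114 CPM in the double knockdown. The 4 conditions overlapped throughout, and its log2 fold changes against control siRNA were -0.056 (95% interval -0.33 to 0.21) for HIF1A siRNA, -0.047 (-0.32 to 0.22) for HIF2A siRNA and -0.052 (-0.30 to 0.20) for the double knockdown. FBXO31 overlaps the gene on the opposite strand. MAP1LC3B2, a near-identical copy, stood at 3.61 to 7.05 CPM. The study's methods removed fragments without a unique place before counting. Fragments that fit both copies equally would thus be counted for neither, and how many were lost is not known here. The mRNA level says nothing of the lipidated protein, which is the form bound to autophagosomes.

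Of the genes that start autophagy, ULK1, the kinase at the head of the pathway, stood at 37.8, 33.7 and 58.8 CPM with control siRNA and 39.8, 28.7 and 56.1 CPM with HIF1A siRNA (log2 fold change -0.055, 95% interval -0.51 to 0.40). With HIF2A siRNA it stood at 30.9, 56.5 and 56.6 CPM and in the double knockdown at 33.0, 34.5 and 48.7 CPM. Replicate 3 was the highest in each of the 4 conditions, and replicate 2 with HIF2A siRNA stood apart from the other libraries of that number. The log2 fold change with HIF2A siRNA was 0.18 (95% interval -0.28 to 0.63) and turned to -0.20 without that library. BECN1, the scaffold of the class III PI3 kinase complex, stood at 34.1, 23.3 and 32.4 CPM with control siRNA and 26.1, 34.2 and 27.6 CPM with HIF1A siRNA (log2 fold change -0.041, 95% interval -0.45 to 0.37). It ranged from 23.8 to 32.8 CPM with HIF2A siRNA and from 17.2 to 34.7 CPM in the double knockdown, the widest range of any condition for this gene. CNTD1 and PSME3 overlap BECN1 on the opposite strand, and the strand setting of the counting is not given in the sources used here.

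FUNDC1, a receptor that is regulated by phosphorylation in hypoxia, stood at 21.5, 27.9 and 16.3 CPM with control siRNA and at 24.2, 31.9 and 17.8 CPM with HIF1A siRNA. It was above the paired control in 3 of 3 pairs (109 to 114%), as were 14.9% of all genes tested, with a log2 fold change of 0.16 (95% interval -0.28 to 0.61, adjusted p = 0.94 by edgeR). With HIF2A siRNA it stood at 21.5, 15.9 and 20.8 CPM, and the log2 fold change of -0.12 became 0.19 without replicate 2 of HIF2A siRNA, the same library that stood apart for ULK1. PINK1 stood at 27.5, 26.6 and 43.1 CPM with control siRNA, 29.8, 35.0 and 49.8 CPM with HIF1A siRNA, 28.4, 28.4 and 47.9 CPM with HIF2A siRNA and 33.4, 24.0 and 52.9 CPM in the double knockdown. Replicate 3 was the highest library of each condition. Within pairs PINK1 was at 109 to 131% of control with HIF1A siRNA and at 104 to 111% with HIF2A siRNA, with log2 fold changes of 0.24 (95% interval -0.035 to 0.52, adjusted p = 0.78) and 0.11 (-0.17 to 0.38, adjusted p = 0.96 by edgeR).

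**Figure D3:**
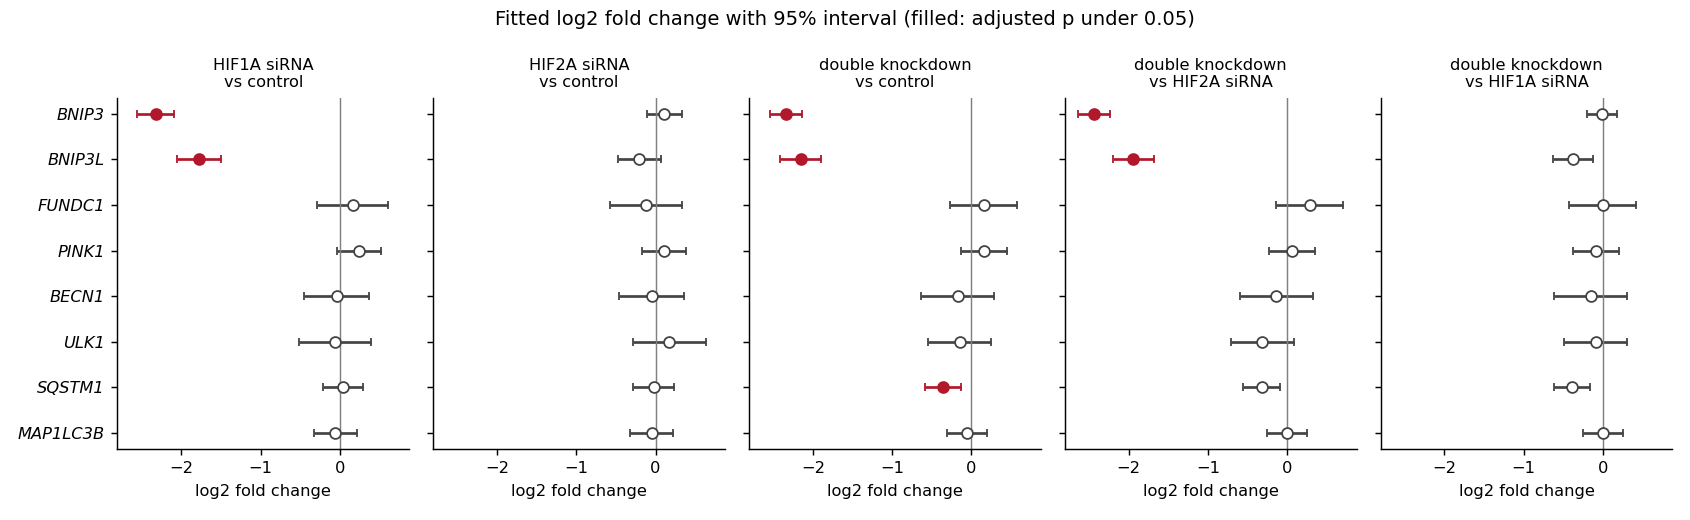
Fitted log2 fold change of each gene with its 95% interval in 5 comparisons, with filled red points for an adjusted p under 0.05. BNIP3 and BNIP3L lie between -2.44 and -1.78 in the 3 comparisons in which HIF1A siRNA was added, SQSTM1 is called in the double knockdown against control siRNA alone, and no interval of an open point reaches below -0.71.

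The members divided by what their libraries differed by. Of the variance of log2 CPM over the 12 libraries, the siRNA took 96.0% for BNIP3 and 98.4% for BNIP3L, and the replicate number 3.92 and 0.368%. The replicate number took 85.6% for PINK1 and 59.8% for ULK1, where the siRNA took 5.17 and 7.71%. For SQSTM1 the siRNA and the replicate number took 43.7 and 42.5%. Most of the variance was in neither for BECN1 (77.5%), MAP1LC3B (82.2%) and FUNDC1 (53.9%). These shares describe the 12 libraries and carry no test.

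The order of the mRNAs was compared per length, as CPM per kb of the canonical transcript in GENCODE 44, which need not be the gene model the counting used. With control siRNA BNIP3 led at 437 ± 88.4 CPM per kb (SD, n = 3), followed by SQSTM1 (211), BNIP3L (95.6) and MAP1LC3B (59.8). FUNDC1 (20.8), BECN1 (14.2), PINK1 (12.2) and ULK1 (8.16) followed, and the libraries of neighbours in this lower part of the order overlapped, whereas those above did not. With HIF2A siRNA the order was the same. With HIF1A siRNA SQSTM1 led (218 CPM per kb), BNIP3 (86.9) came second and BNIP3L (27.7) fell below MAP1LC3B (57.3) to the level of FUNDC1 (23.4), whose libraries overlapped with it. In the double knockdown SQSTM1 (166) again led before BNIP3 (86.5), and FUNDC1 (22.9) and BNIP3L (21.5) overlapped. With the union of all annotated exons as length, an alternative chosen after seeing the data, BNIP3L and SQSTM1 both came to 79.5 CPM per kb with control siRNA, and BECN1 was the lowest in place of ULK1.

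**Figure D4:**
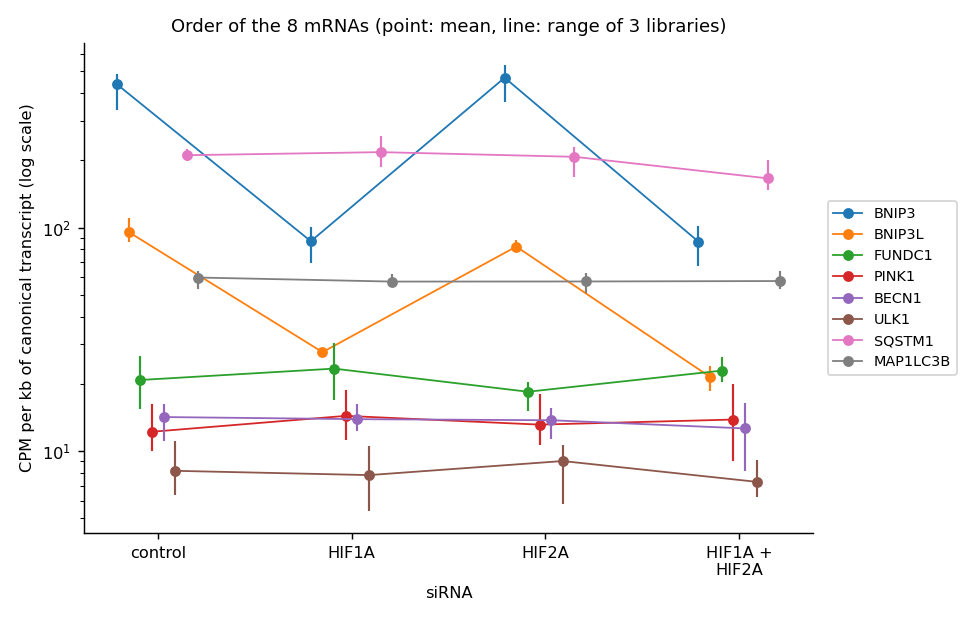
Level of the 8 mRNAs per kb of canonical transcript (log axis) by siRNA, with the mean as a point, the range of 3 libraries as a vertical line and thin lines joining the same gene. BNIP3 and BNIP3L step down with HIF1A siRNA and with both siRNAs, from 437 to 86.9 and from 95.6 to 27.7 CPM per kb with HIF1A siRNA, while the ranges of PINK1 and BECN1 overlap with every siRNA.

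The genes whose pattern over the 12 libraries was most like that of BNIP3, by Pearson correlation of log2 CPM after removal of the mean of each replicate number, were GPI (0.999), FGF11 (0.996), PPFIA4 (0.995), CA9 (0.994) and HK2 (0.993). GPI and HK2 are enzymes of glycolysis and CA9 is a carbonic anhydrase of the cell surface. For BNIP3L they were RIMKLA (0.992), PLOD2 (0.991), RORA (0.988), FAM57A (0.987) and FAM115C (0.986). PLOD2 is a collagen lysyl hydroxylase and RORA a nuclear receptor. BNIP3 and BNIP3L correlated at 0.977 with each other. These libraries share 4 conditions, so the values describe condition means more than 12 independent points. By rank correlation, none of the 5 nearest genes was the same for either receptor.

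Around the members, 123 further genes of autophagy and mitophagy were listed by role, of which 120 were among the symbols and 115 (9 libraries) or 116 (12 libraries) were tested. With HIF1A siRNA 1 of 115 was called, or 0.870% against 1.17% of all genes. This was DDIT4 (REDD1), an inhibitor of mTORC1 and thereby a regulator upstream of ULK1. It stood at 180, 130 and 116 CPM with control siRNA and 74.9, 44.2 and 59.1 CPM with HIF1A siRNA (log2 fold change -1.25, adjusted p = 4.5e-04 by edgeR). These groups did not overlap, and 4.22% of all genes were lower without overlap in this comparison. The call held in 19 of 20 alternatives and was lost without the replicate block (adjusted p = 0.082). With HIF2A siRNA none of the 115 was called, none by DESeq2 either, and 5 had an unadjusted p under 0.05. None of the 7 other mitophagy receptors, the 7 cargo adaptors or the 4 members of the ULK complex was called with either single siRNA.

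The double knockdown against control siRNA called 9 of 116 of these genes, 5 lower and 4 higher, or 7.76% against 10.3% of all genes. This number varied with the libraries used, with 25 called without replicate 2 of HIF2A siRNA and 2 without replicate 3 of all conditions, and 2 were called without the replicate block. The calls of DDIT4 and PRKAA2 held in all 22 alternatives and that of ATG12 in 18. DDIT4 stood at 34.7, 28.8 and 27.2 CPM (log2 fold change -2.22, adjusted p = 9.9e-08 by edgeR). It was the one listed gene also called lower than with HIF1A siRNA alone (-0.96, adjusted p = 0.0013 by edgeR). That call was lost without the block (adjusted p = 0.30) and without replicate 3. DDIT4 changed by -0.065 against control siRNA with HIF2A siRNA alone (adjusted p = 0.98 by edgeR). PRKAA2, a catalytic subunit of the energy sensor AMPK, fell from 72.9 to 97.4 CPM to 44.9 to 57.2 CPM (-0.85, adjusted p = 0.0012). Against control siRNA it changed by -0.61 with HIF1A siRNA alone (adjusted p = 0.12 by edgeR) and by -0.078 with HIF2A siRNA alone. ATG12, which is joined to ATG5 in the enzyme that lipidates ATG8 proteins, fell from 56.2 to 61.1 CPM to 30.4 to 42.1 CPM (-0.66, adjusted p = 0.0067). Its change was -0.25 with HIF1A siRNA alone and -0.51 with HIF2A siRNA alone (adjusted p = 0.78 and 0.38 by edgeR). The double knockdown and control groups of DDIT4, PRKAA2 and ATG12 did not overlap, as for 8.55% of all genes. The remaining lower calls were KIAA0226 (Rubicon, -0.41) and RHEB, the activator of mTORC1 (-0.40), called in 4 and 15 of 22 alternatives.

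Higher in the double knockdown were OMA1, a protease of the inner mitochondrial membrane (0.85, adjusted p = 0.020), AKT1S1 (PRAS40), an mTORC1 subunit (0.48, adjusted p = 0.028), PGAM5, a mitochondrial phosphatase (0.42, adjusted p = 0.031), and PHB2, a prohibitin of the inner membrane (0.36, adjusted p = 0.028 by edgeR). Each of these 4 calls was lost without the replicate block and without replicate 3, and they held in 13 (PGAM5 and PHB2), 14 (AKT1S1) and 15 (OMA1) of 22 alternatives. OMA1 was the lowest of these in level, at 3.62 to 6.82 CPM with control siRNA and 6.62 to 13.1 CPM in the double knockdown, and its groups overlapped. Against control siRNA OMA1 changed by 0.64 with HIF1A siRNA alone (adjusted p = 0.47 by edgeR) and by -0.015 with HIF2A siRNA alone. Against HIF2A siRNA alone, 4 of the 116 genes were called (3.45% against 4% of all genes). These were DDIT4 (-2.14), PRKAA2 (-0.76), OMA1 (0.88) and ATG9A (-0.58), the lipid scramblase that supplies membrane to autophagosomes, which was also lower after HIF1A siRNA when the single knockdowns were compared (-0.70, adjusted p = 0.021 by edgeR). Against HIF2A siRNA alone the calls held in 22 of 22 alternatives for DDIT4, 19 for PRKAA2 and 11 each for OMA1 and ATG9A, and between the single knockdowns that of ATG9A held in 13 of 20. ATG9A stood at 65.6 to 84.1 CPM with HIF1A siRNA and at 108 to 138 CPM with HIF2A siRNA, and at 104 to 105 CPM with control siRNA (log2 fold change -0.48 for HIF1A siRNA, adjusted p = 0.20). None of the 116 was called for the interaction (DESeq2 called 1), where 1 had an unadjusted p under 0.05.

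The relatives of BNIP3 by name, BNIP1 and BNIP2, are proteins of other families and were not called in any comparison. BNIP1 stood at 9.73 to 24.9 CPM and BNIP2 at 29.2 to 52.0 CPM over the 12 libraries, against 517 to 754 CPM of BNIP3 in control cells. BNIP2 changed by -0.24 on the log2 scale with HIF1A siRNA (adjusted p = 0.84) and by -0.36 in the double knockdown (adjusted p = 0.14 by edgeR). BNIPL did not pass the filter on low counts.

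**Figure D5:**
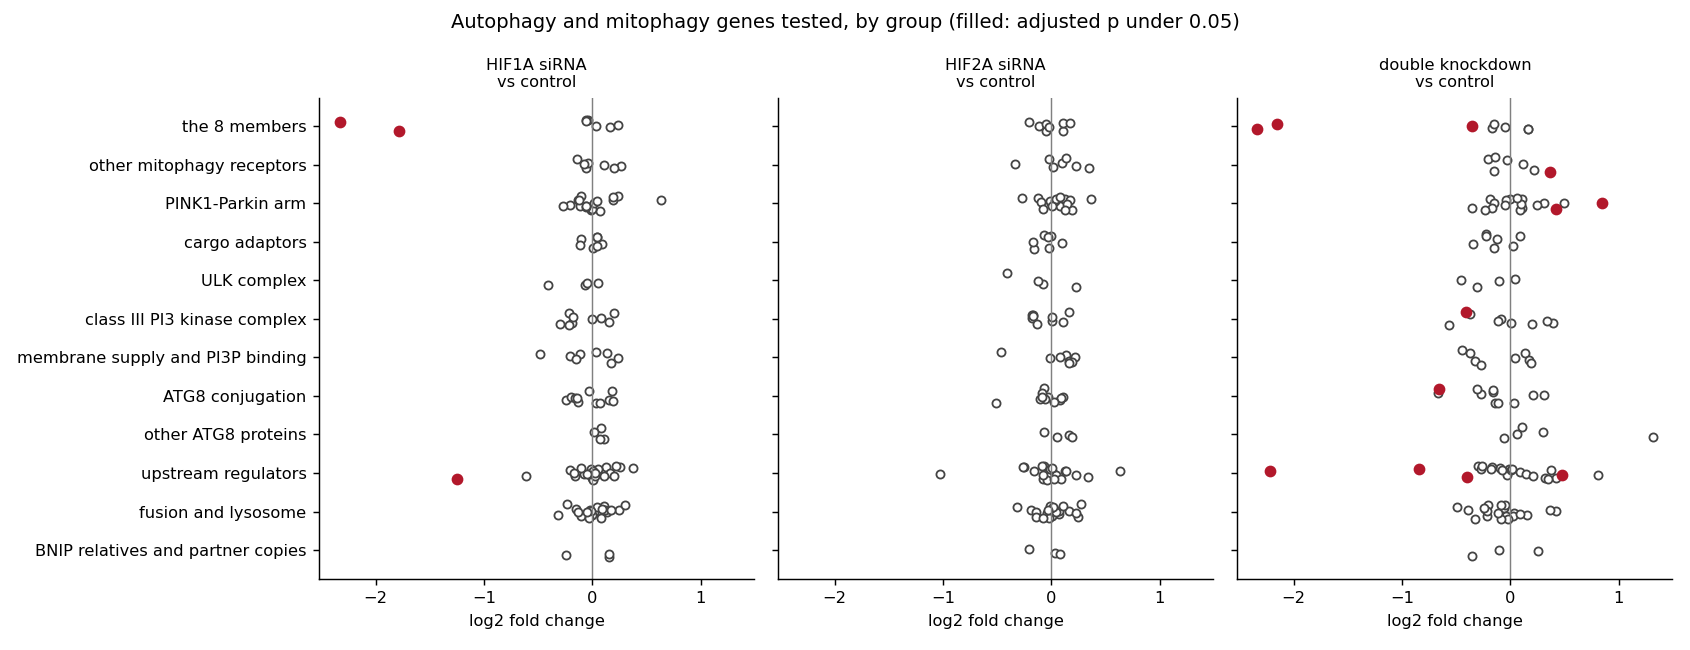
Log2 fold change against control siRNA of the 8 members (top row) and of the further autophagy and mitophagy genes by role (rows below), each point a gene and filled red points those with an adjusted p under 0.05. BNIP3 and BNIP3L lie at -2.33 and -1.78 with HIF1A siRNA, DDIT4 at -1.25 is the sole other gene called there, none is called with HIF2A siRNA, and the double knockdown calls 9 of the further genes.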

How the data were processed

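RNA of 12 RCC4 cultures was sequenced as polyA libraries. Per the labels, the authors used Trim Galore 0.3.3, HISAT2 2.05 (hg19), Picard 2.0.1 and HTSeq 0.5.4p3, and deposited raw counts per gene symbol. The strand setting of the counting is not given in the sources used here. Conditions and replicate numbers came from the labels, and nothing in them says that replicates were separate experiments beyond the study's own pairing by biological replicate. The members, lists and tests were chosen with earlier results of these data known.

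Counts were tested with edgeR 4.0.16 in R 4.3.3 by the quasi-likelihood test, with TMM and replicate number as a block. The filter (filterByExpr by condition, minimum count 10, minimum total count 15) did not require 10 counts in every library. Benjamini-Hochberg adjustment ran over all genes tested, with calls at an adjusted p under 0.05. The fits held 9 libraries for the single knockdowns and 12 for the double knockdown and the interaction. The code was tested on simulated data. Deviations from the condition means correlated at 0.0991 to 0.813 between same-numbered libraries (different numbers, -0.724 to 0.527). Replicates differed beyond sampling noise, so none was merged. CPM used TMM-scaled totals. Named were all members, up to 3 listed genes per direction and comparison with the largest called change in all 3 pairs, relatives and copies, and the 5 genes most like BNIP3 and BNIP3L. KIAA0226, RHEB and PHB2, outside this rule, were named after their values were seen. Symbols were joined to GENCODE 44 and RefSeq (GRCh38) by name. DESeq2 1.42.0, other scalings, filters and libraries were alternatives.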

Additional observations from a re-analysis of the deposited data

How the results depend on the processing

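The BNIP3 and BNIP3L calls held in all 20 alternatives of HIF1A siRNA against control siRNA and against HIF2A siRNA and in all 22 of the double knockdown against control siRNA and against HIF2A siRNA, with a highest adjusted p of 0.0017. Over 56 log2 fold changes of members, 105 of 1176 alternative values changed sign, 3 of them outside the leave-one-out settings, all 3 for MAP1LC3B near 0: 0.035 for HIF1A siRNA against HIF2A siRNA and -0.0054 for the double knockdown against HIF1A siRNA without TMM, and -0.012 for the double knockdown against HIF2A siRNA with at least 10 counts in every library. The cause of these changes was not tested.

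Without the replicate block, calls over all genes fell from 150 to 41 for HIF1A siRNA against control siRNA, 11 to 1 for HIF2A siRNA, 193 to 52 between these, 1336 to 195 for the double knockdown against control siRNA, 182 to 8 against HIF1A siRNA and 520 to 90 against HIF2A siRNA. Called pathway genes became 0, 0 (HIF2A siRNA), 0, 2, 0 and 1 in the same order, and among members the block changed no call but that of SQSTM1 in the double knockdown (adjusted p = 0.55). With DESeq2 the counts over all genes were 236, 58, 329, 1850, 403 and 818, called pathway genes were 2 for HIF1A siRNA, 1 for the interaction and, in the double knockdown, 15 against control siRNA and 3 against HIF1A siRNA, and 1 member (SQSTM1) was called for the double knockdown against HIF1A siRNA. Fitting only the 6 libraries compared gave 2 pathway genes for HIF1A siRNA, 27, 6 and 1 for the double knockdown against control, HIF1A and HIF2A siRNA, and 2 members (SQSTM1 and BNIP3L) against HIF1A siRNA. Over all genes it called 3 for HIF2A siRNA and, in the double knockdown, 2609 against control siRNA, 656 against HIF1A siRNA and 164 against HIF2A siRNA. Pathway genes for HIF1A siRNA were 2 with no filter and with all 12 libraries. For the double knockdown against HIF1A siRNA they were 2 without TMM and 2 with at least 10 counts in every library. Under the study's limits they were 3, counting lower genes only, at an adjusted p under 0.1 by edgeR and the study's fold change limit. The study applied these limits to the single knockdowns and did not analyze the double knockdown. Over all genes HIF2A siRNA called 41 with no filter and 26 with all 12 libraries in the fit, and HIF1A siRNA against HIF2A siRNA called 291 with no filter. For the interaction 3 were called without TMM and 4 with no filter.

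Leaving out libraries, called pathway genes ranged from 1 to 3 for HIF1A siRNA, 1 to 3 for HIF1A siRNA against HIF2A siRNA, and 2 to 25, 0 to 3 and 1 to 6 for the double knockdown against control, HIF1A and HIF2A siRNA. The 25 were reached without replicate 2 of HIF2A siRNA and the 2 without replicate 3 of all conditions, which called 2307 and 302 genes in all. Members called ranged from 2 to 3 for the double knockdown against control siRNA (SQSTM1) and from 0 to 1 against HIF1A siRNA (SQSTM1 without replicate 2 of HIF2A siRNA). Log2 fold changes that crossed 0 had these ranges. For HIF1A siRNA against control siRNA they were FUNDC1 -0.024 to 0.33, BECN1 -0.31 to 0.18, ULK1 -0.25 to 0.15, SQSTM1 -0.042 to 0.12 and MAP1LC3B -0.14 to 0.025. For HIF2A siRNA against control siRNA they were FUNDC1 -0.40 to 0.19, BECN1 -0.31 to 0.20, ULK1 -0.20 to 0.42, SQSTM1 -0.13 to 0.070 and MAP1LC3B -0.14 to 0.081. Between the single knockdowns they were FUNDC1 -0.022 to 0.56, BECN1 -0.14 to 0.14, ULK1 -0.52 to 0.18, SQSTM1 -0.014 to 0.18 and MAP1LC3B -0.14 to 0.098. For the double knockdown against control siRNA they were FUNDC1 -0.0090 to 0.30, BECN1 -0.38 to 0.079 and MAP1LC3B -0.12 to 0.032. Against HIF1A siRNA they were BNIP3 -0.044 to 0.012, FUNDC1 -0.19 to 0.15, PINK1 -0.22 to 0.12, BECN1 -0.42 to 0.21, ULK1 -0.28 to 0.064 and MAP1LC3B -0.064 to 0.073. Against HIF2A siRNA they were PINK1 -0.056 to 0.22, BECN1 -0.34 to 0.21, ULK1 -0.53 to 0.015 and MAP1LC3B -0.15 to 0.12. For the interaction they were BNIP3L -0.36 to 0.021, FUNDC1 -0.14 to 0.33, PINK1 -0.36 to 0.026, BECN1 -0.52 to 0.53, ULK1 -0.47 to 0.077 and MAP1LC3B -0.092 to 0.15. None of the log2 fold changes listed here was called. Standard errors for HIF1A siRNA against control siRNA were 0.19 to 0.21 for FUNDC1, BECN1 and ULK1 and 0.11 to 0.13 for the other 5 members, and whether depth sets them was not tested. Where an interval given reached across 0, these libraries did not separate a change within it from no change.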
